A study of Arabidopsis thaliana with 8 samples.

Results

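In Arabidopsis thaliana, 200 genes differed most in signal between arrays of wild-type seedlings, and their levels were then set beside those of the mutant tt8-3. Whole seedlings 6 days old were profiled on 1-colour Agilent arrays. The wild type was the accession Ws, and tt8-3 is a loss-of-function line of TT8 in that background. The TT8 protein is a transcription factor of the flavonoid pathway, with a basic helix-loop-helix domain. Each line had 4 arrays, called Rep1 to Rep4 in the sample titles. Rep1 and Rep2 of both lines lay on slide 1, and Rep3 and Rep4 on slide 2. The mutant was represented by a single line, and the number of seedlings behind an RNA sample is not given in the sources used here.

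Levels below are log2 of the spot's processed signal relative to the array's 75th percentile, so that 0 marks that percentile and a step of 1 is a doubling. A gene was eligible when the scanner software scored its brightest probe as well above background on all 8 arrays, which held for 18275 of 25433 genes. The wild-type difference is the mean of Rep1 and Rep3 minus the mean of Rep2 and Rep4, each pair having 1 array on each slide. The 200 largest absolute differences with the same sign on both slides made up the set, from the 16028 eligible genes with such a sign. The genes were chosen by these wild-type values, so the values are given as a description, with no test. Of the 200 genes, 49 were higher in Rep1 and Rep3 and 151 were higher in Rep2 and Rep4.

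The design text mentions 2 biological replicates of each line and technical replicates on each slide, and it can be read with the arrays of a slide, or with the arrays at the same place on both slides, as repeats of 1 RNA. Under the second reading, the pair Rep1 and Rep3 and the pair Rep2 and Rep4 would each be 1 wild-type RNA sample. Wild type held the first places of each slide and tt8-3 the later ones. Genotype and place on the slide therefore cannot be told apart, and neither can place and RNA sample within a line. The 75th percentile of processed signal was 547 on wild-type Rep1 and 807 on Rep2, and 789 on Rep3 and 985 on Rep4, so it was lower on the Rep1 and Rep3 side of both slides; its part in the differences was not tested.

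The labels were checked with TT8 (AT4G09820). It read 4.26, 4.39, 4.19 and 4.29 on wild-type Rep1 to Rep4. It was well above background on all 4 wild-type arrays and on 0 of the 4 tt8-3 arrays. Of the listed organ markers, 13 of 13 leaf genes and 20 of 22 root genes were well above background on all arrays, against 1 of 6 pollen genes.

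The gene groups below have well-known roles. Plant cells short of oxygen switch to fermentation and induce a small core of genes, among them sucrose synthases, pyruvate decarboxylase and alcohol dehydrogenase. Aliphatic glucosinolates are sulfur-rich defence compounds made from methionine by chain elongation and a cytochrome P450 pathway, while camalexin and indolic glucosinolates start from tryptophan. A disturbed mitochondrial electron transport chain induces alternative dehydrogenases and oxidases, and foreign chemicals induce glycosyltransferases, glutathione S-transferases and export pumps.

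**Figure D1:**
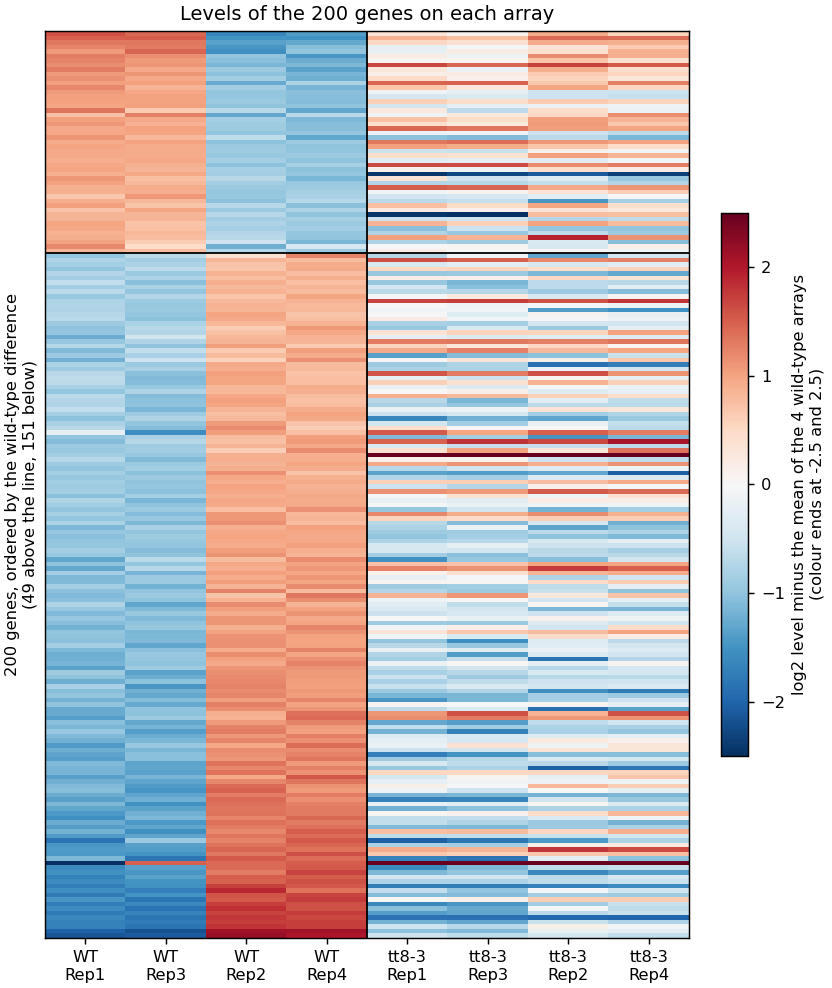
Levels of the 200 genes (rows, ordered by the wild-type difference) on the 8 arrays (columns), as log2 level minus the mean of the 4 wild-type arrays. The 49 genes above the horizontal line were higher in wild-type Rep1 and Rep3, the 151 below it in Rep2 and Rep4, and the tt8-3 arrays at the right are mostly paler than either wild-type pair.

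The wild-type difference of the 49 genes ran from 1.64 to 3.03, with a median of 1.93, and that of the 151 genes from -4.21 to -1.64, with a median of -2.04. Over all 18275 eligible genes the median absolute difference was 0.30. The arrays within a pair lay close together, with a median absolute distance of 0.18 between Rep1 and Rep3 and of 0.16 between Rep2 and Rep4 over the 200 genes. AT2G29870 stood at the upper end and AT4G08593 at the lower end. Neither has a symbol in the gene table, and both are named here after their values were seen. AT4G08593 read -5.30 and -5.25 on wild-type Rep1 and Rep3 and -0.98 and -1.14 on Rep2 and Rep4.

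The edge of the set was not a gap. The last 3 genes inside were XTR6 at -1.64, TIP2;2 at 1.64 and AT2G17740 at -1.64, and the first 3 outside were AT2G36780 at -1.64, DJ1F at 1.63 and AT4G09260 at -1.63. Most spots of the 200 genes were dim: the mean level over 8 arrays had a median of -2.48 on the Rep1 and Rep3 side and of -2.25 on the other, against -0.39 for all eligible genes. For 34 of the 200 genes a further probe reached that standard on all 8 arrays, and all 37 such probes had the sign of the main probe.

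Neighbouring genes recurred in the set. By their order in the gene table, 37 of the 200 genes (18.5%) had another of the 200 within 3 places, against 5.98% of the other eligible genes. Of the 20 such pairs, 17 had the same direction. DTX1, AT2G04050 and AT2G04066 formed one run, with wild-type differences of -3.23, -3.33 and -3.24. UGT73B3 lay beside UGT73B2, and UGT73C1 lay near DOGT1. Probes of close copies may share transcripts, so members of such runs are not independent. XTR6 and XTH14 were such neighbours with opposite directions, -1.64 and 1.75.

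**Figure D2:**
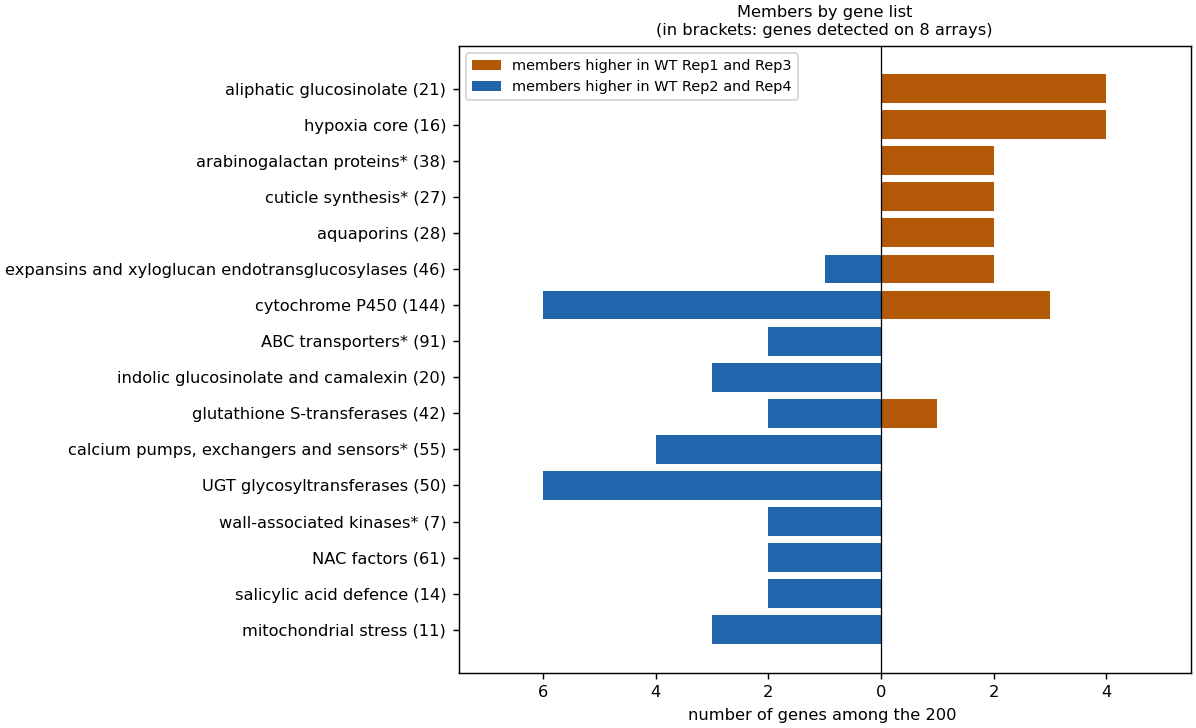
Number of the 200 genes in each gene list that holds at least 2 of them, with bars to the right for genes higher in wild-type Rep1 and Rep3 and to the left for genes higher in Rep2 and Rep4. Lists are ordered by their median wild-type difference, a star marks a list added after values were seen, and the hypoxia and aliphatic glucosinolate lists have 4 genes each on the right and 0 on the left.

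Genes of low-oxygen metabolism were prominent on the Rep1 and Rep3 side. The hypoxia list held 4 of the 200 among its 16 eligible genes (25%), where 1.09% of all eligible genes were in the set, and 14 of the 16 had a wild-type difference above 0 (median 0.85, against 0.03 for all). SUS4 (AT3G43190), a sucrose synthase, read 0.93 and 1.32 on wild-type Rep1 and Rep3 and -1.67 and -1.13 on Rep2 and Rep4, which is 5.76-fold between the pairs. Its tt8-3 levels were -0.32, 0.27, 0.04 and 0.74 for Rep1 to Rep4, all between the wild-type pairs.

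ADH1 (AT1G77120), the alcohol dehydrogenase of ethanol fermentation, read 1.45, -0.87, 1.38 and -0.84 on wild-type Rep1 to Rep4. In tt8-3 it read 1.95, 1.98, 1.72 and 1.8, above every wild-type array. AT4G33070, listed as PDC1, a pyruvate decarboxylase, read -0.16, -2.37, -0.50 and -2.78 in wild type and lay between -1.59 and -0.55 in tt8-3. The fourth gene was RBOHB, an NADPH oxidase of the respiratory burst, with a wild-type difference of 1.71. FTM1 (AT1G43800), a stearoyl-acyl carrier protein desaturase outside the list, read 0.75, -1.94, 0.82 and -1.54.

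Aliphatic glucosinolate synthesis also lay on that side. Its list held 4 of the 200 among 21 eligible genes (19%), and 19 of the 21 had a difference above 0 (median 1.06). BCAT4 (AT3G19710), the transaminase that starts methionine chain elongation, read 0.58 and 0.57 on wild-type Rep1 and Rep3 and -1.71 and -1.24 on Rep2 and Rep4. IPMI1 (AT3G58990), an isomerase subunit of the same elongation cycle, read 0.28, -1.48, 0.35 and -1.63. CYP79F1 (AT1G16410), which makes aldoximes from elongated methionine, read -0.04, -1.87, -0.18 and -2.05. FMO GS-OX1, which oxygenates the finished side chain, had a difference of 1.79. Of the list's 22 genes tested, 4 were higher and 1 lower in tt8-3, where 15.7% and 11% of all genes were, and 11 and 4 with slide as a block, where 33.8% and 30.8% were.

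The other named genes of that side had varied roles. ATSDI1 (AT5G48850), induced by sulfur shortage and known as a repressor of glucosinolate synthesis, is described with tt8-3 below. AK3 (AT3G02020), an aspartate kinase, had a wild-type difference of 2.02, and GSTF11 (AT3G03190), a glutathione S-transferase of the phi class, one of 2.29. EXPB1 (AT2G20750), a beta-expansin, read -1.18 and -1.10 on Rep1 and Rep3 and -2.94 and -3.02 on Rep2 and Rep4. XTH14 (AT4G25820), a xyloglucan endotransglucosylase of root hairs, had a difference of 1.75, AGP3 (AT4G40090), an arabinogalactan protein, one of 2.03, and CYP86A7 (AT1G63710), of the fatty acid hydroxylase family CYP86A, one of 1.95. The defensin-like LCR85 (AT4G22210) had a difference of 1.93 and GLC (AT1G65450), or GLAUCE, which acts in endosperm development, one of 1.86. TIP2;2 (AT4G17340), a vacuolar membrane aquaporin of roots, read 5.47, 3.90, 5.40 and 3.69, and all 28 eligible aquaporins had a difference above 0.

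Most marker lists leaned to the Rep1 and Rep3 side in wild type, so the lean was not particular to leaf or root. All 13 leaf markers were higher in Rep1 and Rep3 (median difference 0.57), as were 15 of 20 root markers (median 0.42). So were all 5 eligible root hair genes, of 22 on the array (median 1.29). Of 12 eligible guard cell genes 7 were above 0 and 5 below (median 0.12), and of 6 seed storage genes 4 and 2 (median 0.29). Of 10 trichome genes 8 were above 0 and 2 below (median 0.62), and the 1 eligible pollen gene was at 0.04. The linear levels of the 13 leaf markers summed to 2808 and 3678 on wild-type Rep1 and Rep3 and to 1746 and 2805 on Rep2 and Rep4. The 22 root markers summed to 191 and 204 on Rep1 and Rep3 and to 116 and 154 on Rep2 and Rep4. Of these 22 genes, 1 reached that standard on 0 of the 8 arrays. The seed storage list summed to 40.3 and 39.1 on Rep1 and Rep3 and to 25.3 and 24.7 on Rep2 and Rep4. For the trichome list the sums were 2.22 and 2.43 on the first pair and 1.83 and 1.95 on the second. The part of organ make-up in the differences was not tested, and in whole seedlings fewer cells of a type and less RNA per cell cannot be told apart. In tt8-3 the leaf sums were 1614, 1530, 2702 and 2518 for Rep1 to Rep4, and the slides differed more than the arrays within them.

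The 151 genes of the Rep2 and Rep4 side included signalling and stress genes. CML41 (AT3G50770), a calmodulin-like protein, read -3.50 and -3.65 on wild-type Rep1 and Rep3 and 0.62 on both Rep2 and Rep4, an 18.3-fold difference. In tt8-3 it read -2.49, -1.66, -2.57 and -1.72, between the wild-type pairs. The list of calcium pumps, exchangers and sensors, added after values were seen, had 4 of its 55 eligible genes in the set, with 21 genes above 0 and 34 below (median -0.13). Beside CML41 these were AT3G63380, listed as the calcium pump ACA12, AT3G22910, listed as ACA13, and CAX7, with differences of -2.93, -2.26 and -1.73.

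Genes induced by mitochondrial stress were on this side throughout. All 11 eligible genes of that list had a wild-type difference below 0 (median -1.35), and 3 of them (27.3%) were in the set. NDB4 (AT2G20800), an alternative NAD(P)H dehydrogenase of mitochondria, read -5.02 and -4.11 on wild-type Rep1 and Rep3 and -1.93 and -1.65 on Rep2 and Rep4. BCS1 (AT3G50930), an outer mitochondrial membrane ATPase also called OM66, read -2.20, -0.04, -1.97 and 0.42. SOT12 (AT2G03760), a sulfotransferase, read 1.23, 3.16, 1.03 and 3.01. Outside the list, HSP23.6-MITO (AT4G25200), a small heat shock protein of mitochondria, had a difference of -2.74. AOX1A and AOX1D, alternative oxidases outside the set, had differences of -1.37 and -1.47.

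The list of UGT glycosyltransferases, which attach sugars to small molecules, had 6 of its 50 eligible genes in the set (12%), all 6 higher in Rep2 and Rep4. Over the whole list 18 genes lay above 0 and 32 below, with a median difference of -0.24. UGT74E2 (AT1G05680), which glucosylates the auxin indole-3-butyric acid, read 1.17 and 0.97 on wild-type Rep1 and Rep3 and 3.79 and 3.71 on Rep2 and Rep4. UGT73C1 (AT2G36750) had a difference of -2.27 and UGT73B2 (AT4G34135) one of -2.25. The other 3 were UGT73B3, DOGT1, which glucosylates brassinosteroids and the fungal toxin deoxynivalenol, and UGT73B5, with differences of -2.18, -2.05 and -1.64.

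DTX1 (AT2G04040), a membrane exporter of toxic compounds, read -3.28 and -3.06 on wild-type Rep1 and Rep3 and 0.14 and -0.03 on Rep2 and Rep4. ABCC3 (AT3G13080), a pump of glutathione conjugates, read 0.67, 3.36, 0.74 and 3.43 on Rep1 to Rep4. Of the 91 eligible ABC transporters, a list added after values were seen, 2 were in the set, and 46 lay above 0 and 45 below. Among glutathione S-transferases, GSTU11 (AT1G69930) and GSTU25 (AT1G17180) were on this side, with -2.43 and -1.70, against GSTF11 on the other. Over all 42 eligible genes of that family 21 lay above 0 and 21 below (median -0.06), so these 3 do not describe the family. CYP81D8 (AT4G37370), a cytochrome P450 often used as a marker of chemical and oxidative stress, read -0.49, 1.12, -0.65 and 1.11. Of the 144 eligible P450s, 3 were in the set on the Rep1 and Rep3 side and 6 on the other, while 90 lay above 0 and 54 below.

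Some defence genes against microbes were also on the Rep2 and Rep4 side. The camalexin and indolic glucosinolate list had 3 of its 20 eligible genes in the set (15%), with 10 genes above 0 and 10 below. PAD3 (AT3G26830), the P450 of the last step of camalexin synthesis, read -1.96 and -1.88 on wild-type Rep1 and Rep3 and -0.22 and 0.17 on Rep2 and Rep4. CYP71A12 (AT2G30750), an earlier P450 of that pathway, had a difference of -1.65, and CYP81F2 (AT5G57220), which modifies indolic glucosinolates, one of -2.03. Of the 14 eligible salicylic acid defence genes, 11 were below 0 (median -0.46) and 2 were in the set. These were PBS3, an enzyme of salicylic acid synthesis, and CBP60G (AT5G26920), a calmodulin-binding activator of that synthesis.

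Transcription factors on this side were MYB15 (AT3G23250), an activator of defence lignification, NAC036 (AT2G17040), NAC042, WRKY25, DREB2C, the zinc finger protein ZAT7 and the cytokinin response factor CRF6. MYB15 read -2.53 and -2.16 on wild-type Rep1 and Rep3 and -0.71 and -0.38 on Rep2 and Rep4. Other named genes of this side were MRD1 (AT1G53480) with a difference of -2.83, SUFE2 (AT1G67810), which helps iron-sulfur cluster assembly, with -2.54, SAL2 (AT5G64000), of a family of phosphatases of inositol phosphates and adenosine bisphosphates, with -2.53, and RPB5C (AT5G57980) with -2.36. ACS7 (AT4G26200), an enzyme of ethylene synthesis, had -2.42. CYP71B23 (AT3G26210) and CYP71A23 (AT3G48300), both cytochrome P450s, had -2.28 and -1.85, and CHAT (AT3G03480), which acetylates the leaf volatile hexenol, had -1.73.

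The remaining genes with a symbol had varied roles, and they are named here after their values were seen. On the Rep2 and Rep4 side, PLA2A, a lipid acyl hydrolase, read -1.84 and -1.85 on wild-type Rep1 and Rep3 and 0.55 and 0.38 on Rep2 and Rep4. ABCB4, an auxin transporter of roots, read -0.14, 2.03, -0.08 and 1.90. AZI1, a lipid transfer protein of systemic immunity, had a difference of -1.96, and FRK1, a receptor kinase induced by bacterial flagellin, one of -1.77. The nucleolin NUC-L2, the cytokinin-activating enzyme LOG5, the threonine aldolase THA1 and the nicotianamine synthase NAS3 had differences of -2.26, -2.03, -1.89 and -1.7. On the Rep1 and Rep3 side, the arabinogalactan protein AGP13 read -0.55, -2.16, -0.69 and -2.44, and the ammonium transporter AMT1;4 had a difference of 1.69, the aquaporin TIP4;1 one of 1.76 and the cytochrome P450 CYP77A4 one of 1.7.

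PYR1 (AT4G17870), an abscisic acid receptor, was in the set because of 1 array. It read -4.05 on wild-type Rep1 and 1.81, 1.87 and 1.90 on Rep2 to Rep4. Its place in the set therefore does not show the pattern of the other genes.

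**Figure D3:**
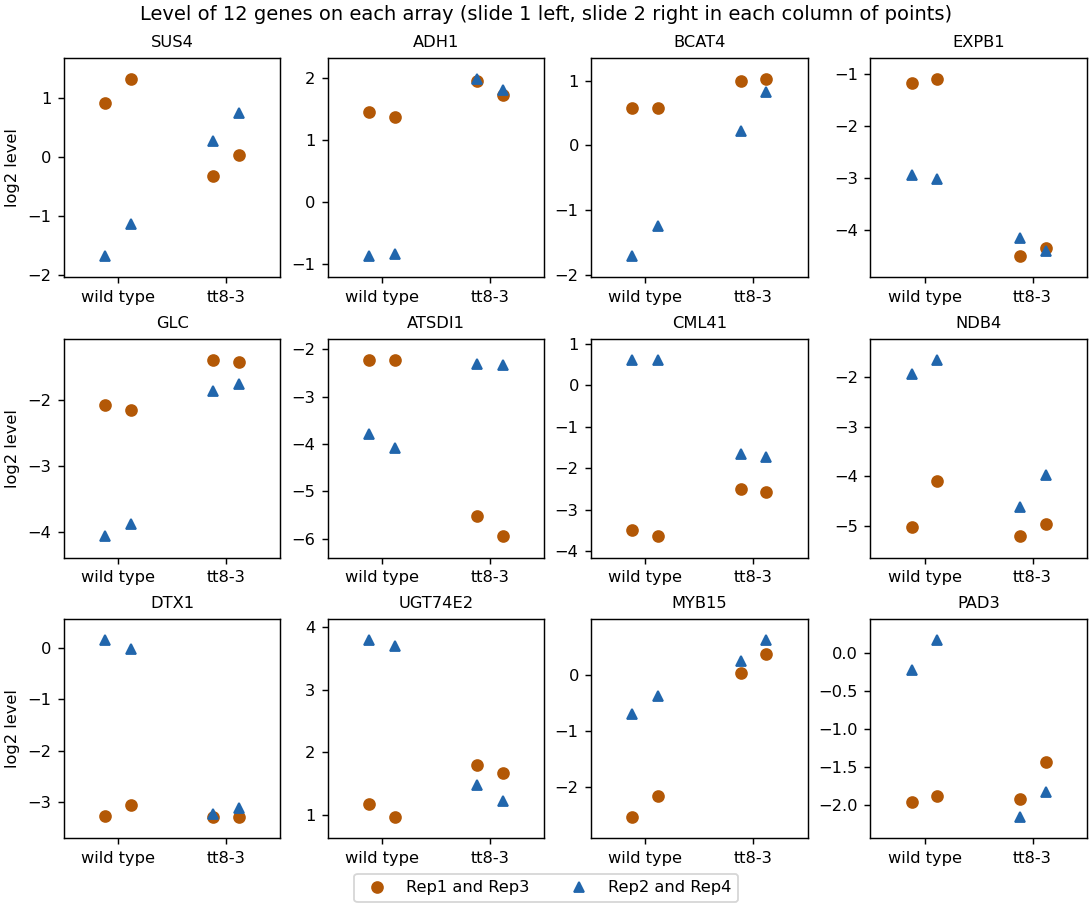
Log2 level of 12 of the named genes on each array, with circles for Rep1 and Rep3, triangles for Rep2 and Rep4, and slide 1 to the left of slide 2 in each group. In wild type the circles and triangles are far apart for all 12 genes. In tt8-3 they are close for ADH1, DTX1 and EXPB1 and far apart, in the opposite order, for ATSDI1.

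The tt8-3 arrays were then compared with wild type. For the test, both arrays of each line were averaged within each slide, which gives 2 averages per line. The wild-type difference cancels in each average, so the rule did not use this contrast. A change is measured here from the midpoint of the wild-type pairs. Of the 200 genes, 114 passed the limma threshold (adjusted p under 0.05), against 26.7% of all 19225 genes tested.

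By direction, 16 of the 49 genes of the Rep1 and Rep3 side were higher in tt8-3 and 10 were lower. Of the 151 genes of the other side, 24 were higher and 64 lower. Among all genes tested 15.7% were higher and 11% lower. With each array's median as the scale, the split over all genes turned to 2153 higher and 2597 lower, and the medians of the 49 and the 151 genes moved to 0.21 and -0.53. The median log2 change was 0.31 for the 49 genes, -0.43 for the 151 genes and 0.01 for all genes tested. With slide as a block, 27 of the 49 were higher and 15 lower, and 36 of the 151 were higher and 90 lower, against 33.8% and 30.8% of all genes. In either direction these are 168 of the 200, against 64.6% of all genes.

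A change from the midpoint is not a level outside the wild-type range. For 156 of the 200 genes the tt8-3 mean lay between the means of the wild-type pairs, as it did for 72 of the 114 that passed. The rule chose wide pairs, so this share is high by construction, and it was 31.3% over all eligible genes. The tt8-3 mean was on the side of wild-type Rep1 and Rep3 for 30 of the 49 genes and 108 of the 151, against 47% of all eligible genes. All 4 tt8-3 arrays lay between the wild-type pairs for 106 genes, overlapped the lower pair for 50 and the higher pair for 28.

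When the arrays at the same place on both slides were averaged instead, 0 of the 200 genes passed the limma test, against 3.11% of all genes (2.73% higher and 0.38% lower). This follows from the choice of the genes, because their wild-type spread in that fit is the difference that chose them. At an unadjusted p under 0.05, 5 of the 200 passed there, 4 higher and 1 lower, against 23.4% of all genes, 14.9% higher and 8.46% lower. If Rep1 with Rep3 and Rep2 with Rep4 were the RNA samples, the slide averages would carry no biological spread, and adjusted p-values would measure the spread between repeats only.

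**Figure D4:**
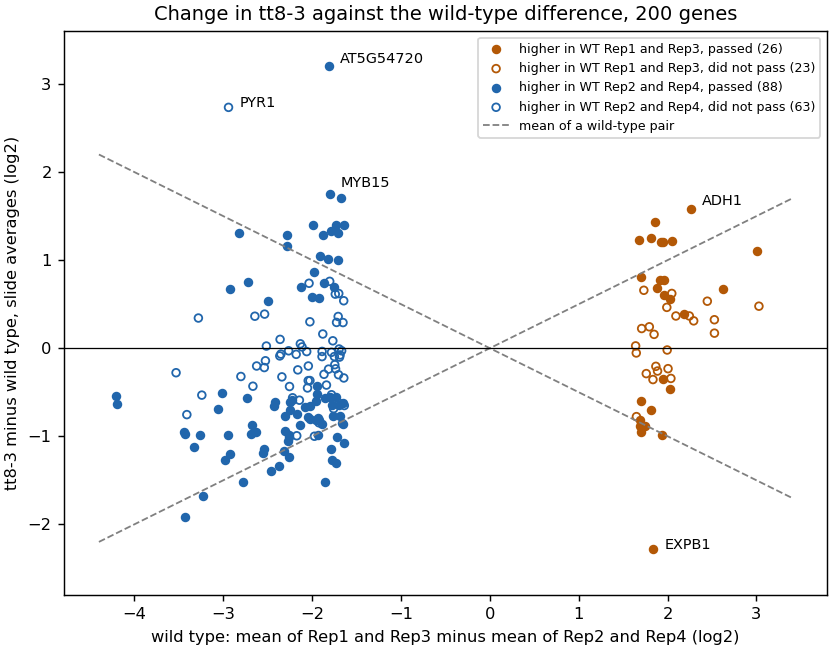
Change of the 200 genes in tt8-3 (log2, slide averages) against the wild-type difference, with filled points for the 114 genes that passed the limma test and open points for the rest. Dashed lines mark the means of the wild-type pairs, and 156 points lie between them.

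Of the 200 genes, 83 have a symbol in the gene table and 55 were in a gene list, and all 200 are annotated as protein-coding.

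The tt8-3 arrays of 12 genes lay above every wild-type array, and those of 4 genes below. Over all eligible genes these shares were 18.2% and 13.8%. The wide wild-type range of the chosen genes makes such places rarer. Those above were ADH1, GLC and AT1G12570 from the Rep1 and Rep3 side, and MYB15, NAC036, CBP60G, ZAT7, WAKL2, XTR6, PYR1, AT5G36925 and AT5G54720 from the other. Those below were EXPB1 from the first side and CYP71A12, CYP71A23 and AT5G55150 from the second.

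Among genes that rose, ADH1 rose by 1.58 (SE 0.11, limma adjusted p = 0.0048) and GLC by 1.44 (SE 0.085, adjusted p = 0.0037). GLC read -2.08, -4.07, -2.15 and -3.88 on the wild-type arrays and -1.87 to -1.39 on the tt8-3 arrays, so the groups did not overlap. BCAT4 rose by 1.21 from the midpoint (SE 0.16, adjusted p = 0.014), but 1 of its tt8-3 levels, 0.22 on Rep2, was below wild-type Rep1 and Rep3. In the hypoxia list 4 of 16 genes tested were higher and 0 lower, where 15.7% and 11% of all genes were. Of these 4, ADH1 was the one in the set. SUS4 (0.32), AT4G33070 (0.37), RBOHB (0.22) and FTM1 (0.17) did not pass, though with slide as a block SUS4, AT4G33070 and FTM1 did (adjusted p = 0.0095, 0.0081 and 0.039).

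On the Rep2 and Rep4 side, MYB15 rose by 1.75 (SE 0.19, adjusted p = 0.011). Its tt8-3 levels of 0.03, 0.23, 0.37 and 0.61 were above all wild-type levels. NAC036 rose by 1.7 (SE 0.091, adjusted p = 0.0032) and CBP60G by 1.40 (SE 0.19, adjusted p = 0.015). XTR6, a xyloglucan endotransglucosylase, rose by 1.39 (adjusted p = 0.0041). AT5G54720, which has no symbol and is named here after its values were seen, rose by 3.20 (adjusted p = 0.00073), from -5.19, -3.43, -5.27 and -3.40 in wild type to -1.35 to -0.91 in tt8-3.

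MRD1, BCS1 and CYP71B23 rose to about the level of the higher wild-type pair. MRD1 read -3.21, -0.32, -3.18 and -0.42 in wild type and -0.85, 0.01, -0.92 and -0.16 in tt8-3, a rise of 1.3 from the midpoint (adjusted p = 0.0053). BCS1 read 0.15, -0.08, 0.65 and 0.64 in tt8-3 (rise 1.29, adjusted p = 0.033) and CYP71B23 read -2.07 to -1.85 (rise 1.17, adjusted p = 0.022). The groups overlapped for these 3 genes.

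The largest fall among members with a symbol was that of EXPB1, by 2.29 (SE 0.083, adjusted p = 0.0014). Its tt8-3 levels were -4.50, -4.16, -4.34 and -4.39, below every wild-type array. XTH14 fell by 0.88 (adjusted p = 0.026), to levels that overlapped those of wild-type Rep2 and Rep4. LCR85 fell by 0.98 (adjusted p = 0.037), AGP3 by 0.47 (adjusted p = 0.027) and CYP86A7 by 0.35 (adjusted p = 0.048). AK3 rose by 0.56 (adjusted p = 0.024). TIP2;2 (0.03, adjusted p = 0.87) did not pass.

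Several genes of the Rep2 and Rep4 side fell in tt8-3. DTX1 read -3.28, -3.24, -3.29 and -3.13 there, as low as wild-type Rep1 and Rep3, and fell by 1.68 from the midpoint (SE 0.084, adjusted p = 0.0029). SUFE2 fell by 1.15 (adjusted p = 0.0054), ABCC3 by 0.98 (adjusted p = 0.0074), UGT74E2 by 0.87 (adjusted p = 0.015) and UGT73B2 by 0.70 (adjusted p = 0.023). Their tt8-3 levels lay between the wild-type pairs. UGT73C1 fell by 1.05 (adjusted p = 0.023), GSTU11 by 0.66 (adjusted p = 0.041) and GSTU25 by 0.64 (adjusted p = 0.015). UGT73B3 (-0.07) and UGT73B5 (0.54) did not pass, though with slide as a block UGT73B5 did (adjusted p = 0.0087). Of all 53 UGT genes tested, 10 were higher and 17 lower, where 15.7% and 11% of all genes were.

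The mitochondrial stress list split in tt8-3, with 2 genes higher and 6 lower of 11 tested (median -0.59). Among all genes tested 15.7% were higher and 11% lower. NDB4 fell by 1.52 (SE 0.27, adjusted p = 0.026), with tt8-3 levels of -5.22, -4.62, -4.97 and -3.97 that overlapped wild-type Rep1 and Rep3. SOT12 fell by 0.59 (adjusted p = 0.027), while BCS1 rose. HSP23.6-MITO fell by 0.57 (adjusted p = 0.020). The camalexin genes PAD3 and CYP71A12 fell by 0.86 (adjusted p = 0.037) and 1.07 (adjusted p = 0.0078), and CYP81F2 (-0.37) passed only with the block (adjusted p = 0.0069). The whole camalexin and indolic list had 2 genes higher and 6 lower of 21 tested. The salicylic acid list had 9 higher and 1 lower of 18, to be set beside the same shares of 15.7% and 11%.

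In this further group, AGP13 rose by 1.23 (adjusted p = 0.022) and CYP77A4 by 0.81 (adjusted p = 0.023), and their tt8-3 levels overlapped those of wild-type Rep1 and Rep3. AMT1;4 fell by 0.88 (adjusted p = 0.018). NUC-L2 fell by 0.98 (adjusted p = 0.017), AZI1 by 0.81 (adjusted p = 0.014), PLA2A by 0.77 (adjusted p = 0.014), ABCB4 by 0.66 (adjusted p = 0.015) and FRK1 by 0.65 (adjusted p = 0.017). LOG5 (0.30), THA1 (-0.10), NAS3 (-0.0089) and TIP4;1 (-0.29) did not pass, and their tt8-3 arrays lay between the wild-type pairs. With the block LOG5 and TIP4;1 did (adjusted p = 0.010 and 0.016). Of the calcium pumps, AT3G63380 fell by 1.2 (adjusted p = 0.030) and AT3G22910 (-0.03) did not pass, and the exchanger CAX7 fell by 0.55 (adjusted p = 0.026). ZAT7 rose by 1.40 (adjusted p = 0.011), NAC042 fell by 0.98 (adjusted p = 0.0070) and DREB2C by 0.56 (adjusted p = 0.024), and WRKY25 (0.36) and CRF6 (-0.85) passed only with the block (adjusted p = 0.0070 and 0.0042). The same held for PBS3 (-0.24, adjusted p = 0.029 with the block) and FMO GS-OX1 (0.24, adjusted p = 0.031).

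CYP71A23 fell by 1.52 (adjusted p = 0.014), CHAT by 1.31 (adjusted p = 0.0065), CML41 by 0.63 (adjusted p = 0.016) and ACS7 by 0.61 (adjusted p = 0.038). SAL2 (-0.14), RPB5C (-0.09), GSTF11 (0.31), IPMI1 (-0.21) and CYP79F1 (0.16) did not pass, and their tt8-3 arrays lay between the wild-type pairs. Of these 5, GSTF11 passed with the block (adjusted p = 0.0095). PYR1 read 3.16, 3.01, 3.20 and 3.1 in tt8-3, and its change of 2.74 (SE 1.0) did not pass (adjusted p = 0.13) with wild-type Rep1 included.

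These calls rest on few arrays. Of the 36 genes besides TT8 that were named by rule and passed, EXPB1 alone passed in all 12 fits that left out 1 array or 1 slide average. The other genes named in the text, AT5G54720 and ZAT7 among them, were not followed through these fits. MYB15 and NAC036 lost the call in 1 of 12 fits, the one without wild-type Rep3. ADH1, GLC, DTX1, CHAT, CYP71A12 and CYP71A23 lost it without wild-type Rep2 and without Rep4, and MRD1, XTR6 and CBP60G without Rep1 and without Rep3.

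At the other end, the call was lost in 12 of 12 fits for CYP86A7, in 10 for ACS7, in 9 for AGP3 and GSTU11, in 8 for CML41, SOT12 and CYP81D8, and in 7 for PAD3, UGT73B2, HSP23.6-MITO, AK3 and DJ1F. Over these fits the change ran from -1.27 to -0.04 for GSTU11, from -1.08 to -0.21 for GSTU25, from -1.56 to -0.19 for UGT74E2 and from -1.09 to -0.098 for SOT12. GSTU25, UGT73C1, LCR85 and ATSDI1 lost the call in 6 fits, UGT74E2, BCS1 and XTH14 in 5, NDB4, ABCC3 and BCAT4 in 4, and SUFE2 and CYP71B23 in 3. Leaving out a wild-type array moves these values by construction, since part of the wild-type difference then enters the change. Without a tt8-3 array, 16 of the 37 genes also lost the call, while TT8, counted among the 37, kept it.

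The last comparison asked whether the arrays of tt8-3 differed in the same way as those of wild type. The tt8-3 difference is the mean of tt8-3 Rep1 and Rep3 minus the mean of Rep2 and Rep4, which the rule did not use. If Rep1 with Rep3 and Rep2 with Rep4 are each 1 RNA sample, this sets 1 tt8-3 RNA against another, and every p below then measures the spread between repeat arrays only. Its median was -0.14 for the 49 genes, whose wild-type median was 1.93, and -0.11 for the 151 genes, whose wild-type median was -2.04. In size, it had a median of 0.32 over the 200 genes and 0.12 over all eligible genes, while the 200 were also dimmer than most genes. Over all 18275 genes the wild-type and tt8-3 differences correlated at r = 0.14, and over the 200 genes at -0.020. These are descriptions across genes that share arrays.

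The signs were counted next. For 83 of the 151 genes the tt8-3 difference had the wild-type sign on both slides, and for 41 the opposite sign on both. For the 49 genes these counts were 13 and 29. Over all eligible genes the shares were 46.1% and 27.2%. No test of the difference between the sides was made.

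**Figure D5:**
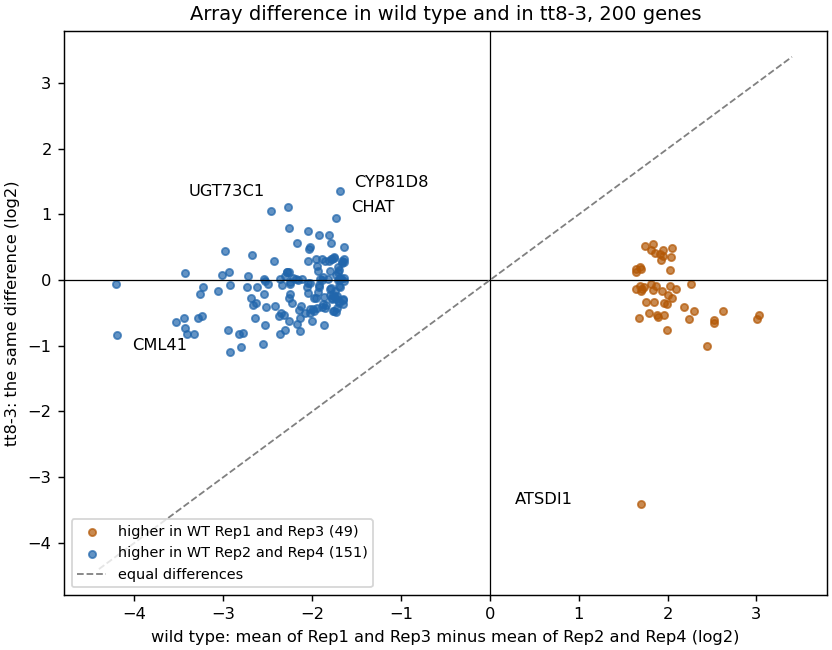
Difference between Rep1 and Rep3 and Rep2 and Rep4 in tt8-3 (vertical, log2) against the same difference in wild type (horizontal, log2) for the 200 genes, with a dashed line for equal differences. The median size on the vertical axis is 0.32, and ATSDI1 lies at -3.41.

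In the limma test on the 4 tt8-3 arrays, 0 of 18275 genes passed. At an unadjusted p under 0.05, 80 of the 200 genes passed, against 9.19% of all. Of these 80, 22 were higher in Rep1 and Rep3 and 58 in Rep2 and Rep4, against 4.68% and 4.51% of all genes. With slide as a block, 63 of the 200 passed, against 6.01% of all genes. Of these 63, the 49 genes of the Rep1 and Rep3 side gave 2 with the wild-type direction and 13 with the opposite one, and the 151 genes gave 35 with the wild-type direction and 13 with the opposite one. Over all genes 3.47% passed as higher in Rep1 and Rep3 and 2.54% as higher in Rep2 and Rep4.

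ATSDI1 had the largest tt8-3 difference of all eligible genes. It read -2.23, -3.79, -2.22 and -4.08 on wild-type Rep1 to Rep4 and -5.52, -2.31, -5.95 and -2.33 on those of tt8-3. The pair that was high in wild type was the low pair in tt8-3, with differences of 1.71 and -3.41 (limma adjusted p = 0.098, or 0.012 with slide as a block). Its change of -0.95 between the lines (adjusted p = 0.014) is an average over these opposite pairs.

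The sulfur response list was looked at as a whole. Of its 14 eligible genes, 13 had a wild-type difference above 0 (median 0.85), and 9 had a tt8-3 difference below 0 and 5 above (median -0.33), as 10054 of all 18275 genes were below 0. With slide as a block, 7 of the 14 passed as higher in tt8-3 Rep2 and Rep4, where 2.54% of all genes did, and 0 as higher in Rep1 and Rep3. Without the block 0 passed. APR1, an enzyme of sulfate reduction outside the set, read 1.7, 0.35, 1.66 and 0.33 in wild type and -0.79, 0.56, -0.80 and 0.57 in tt8-3 (difference -1.36, adjusted p = 0.098, or 0.012 with the block). LSU1, a gene induced by low sulfur, had differences of 1.47 and -1.29 (adjusted p = 0.16, or 0.013 with the block).

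CYP81D8 turned the other way. It read 0.18, -1.12, 0.19 and -1.24 in tt8-3, a difference of 1.36 where wild type had -1.69 (adjusted p = 0.098, or 0.013 with the block). CHAT read -4.96, -5.94, -4.86 and -5.78, a difference of 0.95 where wild type had -1.73 (adjusted p = 0.19, or 0.018 with the block). UGT73C1 had 1.12 where wild type had -2.27 (adjusted p = 0.31, or 0.020 with the block).

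CML41 and RPB5C kept the wild-type direction at a smaller size, with tt8-3 differences of -0.84 and -0.82 (adjusted p = 0.19 for both, or 0.019 and 0.021 with the block) where wild type had -4.19 and -2.36. ADH1 (-0.06), SUFE2 (0.01), SAL2 (-0.01), NAC036 (0.03) and UGT73B2 (-0.03) had tt8-3 differences near 0, with adjusted p of 0.97 to 0.99. In the hypoxia list 13 of 16 genes had a tt8-3 difference below 0, as had 10054 of all 18275 genes. In wild type 14 of the 16 were above 0. With the block 5 of the 16 passed as higher in tt8-3 Rep2 and Rep4, where 2.54% of all genes did, and 0 without it. SUS4 and AT4G33070 were among these 5, with -0.65 and -0.59 (adjusted p = 0.023 and 0.024 with the block, 0.51 and 0.58 without it).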

How the data were processed

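Seedling RNA was measured on 8 arrays. Spot intensities were made by the authors. The submitters' processing notes name Agilent Feature Extraction, version 10.7.1.1. The intensities, per the file headers, include a linear processed signal with its background subtracted. The 0 or 1 score that a spot is well above background also comes from the deposited scanner files. The deposited table holds log2 values, which matched the scanner differences within slides at a correlation of at least 0.99997. No spot was saturated, and the share of probes well above background was 69.0% to 77.2% per array. These signals and the number of arrays limit the precision.

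Uneven spots were left out (4 to 23 per array), repeated probes averaged, and log2 processed signal reduced by each array's 75th percentile. Accessions named 34358 of 43603 probes through a gene table of assembly TAIR10.1; the brightest of several probes stood for a gene. Genes with every array of 1 or both lines well above background were tested with limma 3.58.1 in R 4.3.3 (lmFit, eBayes, Benjamini-Hochberg over all genes, threshold 0.05). Slide pairs the samples: each description names a slide number, and slide differences of both lines correlated at 0.85. Within-slide differences of both slides correlated at 0.92 in wild type and 0.68 in tt8-3. In the fit with a random block, arrays of the same line and slide had a consensus correlation of -0.21. Which reading of the replicates holds was not tested. Nothing in the labels says that arrays came from separate cultures, so p-values may measure technical spread only. The steps were tested on simulated data with independent noise of equal spread on every array. Such data hold no shared slide or RNA differences, so they cannot show the error rates for these arrays.

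The genes and gene lists were chosen with earlier results of these data known. Named are the 12 genes with a symbol at each end of the wild-type difference, the 3 leading genes of each list with at least 3, the 5 largest rises and falls and 5 smallest p in tt8-3, 3 genes on each side of the edge, and TT8; further list members were named after their values were seen. No probe sequence is printed. Alternatives were slide, replicate number or a random term as blocks, other background correction, scaling, filter and probe choice, and arrays left out. The normexp correction was run on the median spot signal without spots of flagged background, a choice made after seeing the data.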

Additional observations from a re-analysis of the deposited data

Results flagged for a closer look

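Among 102 groups of 4 arrays looked at for the genes named by rule, 2 had an array far from the other 3. Chance alone flags about 1 in 20, but that rate is no yardstick here. Nearly all these genes were chosen for wild-type arrays that split 2 against 2, which leaves little room for a lone wild-type outlier. PYR1 read -4.05 on wild-type Rep1 and 1.81 to 1.90 on the other wild-type arrays. It has a single value per array from 1 probe, and without that array its change in tt8-3 is given in the next part. CYP71A23 read -6.38 on tt8-3 Rep4 and -5.73 to -5.62 on the other tt8-3 arrays.

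For 26 of the 200 genes, the tt8-3 difference between Rep1 and Rep3 and Rep2 and Rep4 passed with slide as a block and was opposite to that of wild type on both slides. Among the genes named by rule it was -0.61 for FTM1, -0.65 for SUS4, -0.59 for AT4G33070 and -3.41 for ATSDI1, which were positive in wild type. It was 1.12 for UGT73C1, 0.51 for CYP81F2, 0.95 for CHAT, 1.36 for CYP81D8 and 0.50 for AT2G17740, which were negative in wild type. Other genes named in the text with such a difference were AT2G29870 (-0.53), FMO GS-OX1 (-0.50), DOGT1 (0.75) and PBS3 (0.69). If each pair of arrays is 1 RNA sample, these values set 1 RNA against another. The difference between the lines was not tested, since the wild-type values chose the genes. For the count of 26, the share of all eligible genes that meet both conditions was not worked out, so the count does not set the 200 apart. Taken singly, 6.01% of all genes passed with the block and 27.2% were opposite to wild type on both slides.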

How the results depend on the processing

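The genes higher in wild-type Rep1 and Rep3 (49) and those higher in Rep2 and Rep4 (151) are counted here in that order, as higher and lower in tt8-3: 16 and 10, then 24 and 64. With slide as a replicate block, which the slide numbers pair, the count of higher genes among the 49 was 27. With same-numbered replicates as a block on 8 arrays the counts were 3, 1, 8 and 2, against 4181 higher and 3184 lower over all genes. With the slide average as a random block they were 6, 1, 9 and 5, against 4105 and 2938. With places averaged they were 0 each, against 524 and 73. These fits hold the wild-type difference in their spread by construction. Without the dim-probe filter the counts were 10, 4, 15 and 35, against 1573 higher and 825 lower over all genes. With normexp the 49 gave 8 and 4, with a median change of 0.085, against 1890 and 1557 over all genes. Leaving out 1 array or average gave 0 to 18, 1 to 9, 1 to 24 and 0 to 69, with a median change of -0.26 to 0.89 for the 49 genes and -1.01 to 0.13 for the 151. The lowest counts came without wild-type arrays: without Rep2 and without Rep4 the 49 gave 0 higher and the 151 gave 0 lower, since part of the wild-type difference then enters the contrast. Over all genes, 1832 were higher and 971 lower without Rep2, and 1930 and 1036 without Rep4. The medians were -0.26 and -0.23 for the 49 genes without Rep2 and Rep4, and 0.12 and 0.13 for the 151.

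In the tt8-3 array test, 0 genes of either kind passed. With slide as a block, 2 of the 49 were higher in Rep1 and Rep3 and 13 in Rep2 and Rep4, and of the 151, 13 and 35. Without 1 tt8-3 array, which leaves a pair with a single array, the median differences were -0.26 to -0.05 for the 49 and -0.14 to -0.11 for the 151. Choosing the genes again shared 119 of 200 with normexp and 72 without the dim-probe filter.

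Among the genes named by rule, changes that reversed did so without 1 wild-type array. Over the arrays left out, the ranges were -0.98 to 0.048 for AGP3 and -0.84 to 0.14 for CYP86A7, each above 0 without Rep1 or without Rep3. They were -1.70 to 0.43 for CML41 and -1.26 to 0.12 for HSP23.6-MITO, above 0 without Rep2 or without Rep4, and -1.22 to 0.0049 for ACS7, above 0 without Rep2. PYR1 changed by 1.27 without wild-type Rep1 (limma adjusted p = 0.0078). Over all genes, 3025 were higher and 2112 lower, against 2153 and 2597 with each array's median as the scale. The number of arrays and dim spots limit these values.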
